A study of Homo sapiens with 12 samples.

Results

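The MYC and MAX network is a family of transcription factors, and 10 of its genes were followed here through a small-molecule inhibition of the arginine methyltransferase PRMT5. The members were chosen by symbol: MYC, its partner MAX, the MXD antagonists MXD1, MXD3, MXD4 and MXI1, the further MAX partners MNT and MGA, and the parallel pair MLX and MLXIP. All 10 symbols were among the 23368 of the deposited count tables, and all 10 passed the filter on low counts at both times. The cells were SUDHL6, an established human line of lymphoma B cells of the germinal centre kind, so the results describe 1 line in culture. In 2 groups of 3 samples cells received vehicle (0.01% DMSO) for 24 h or 96 h, and in the other 2 groups of 3 they received 200 nM GSK591, a PRMT5 inhibitor, for the same times. Poly(A)-selected RNA was sequenced and counted per gene in the 12 libraries.

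MYC binds DNA as a dimer with MAX, at a short palindrome called the E-box, and raises transcription of genes for growth, ribosome production and nucleotide synthesis. The MXD proteins, MNT and MGA also pair with MAX at E-boxes, but most of them bring the SIN3 corepressor and lower transcription, and MXD proteins often rise as cells leave the cycle and differentiate. MLX forms a second hub, which pairs with MLXIP (MondoA), a sensor of glucose-derived metabolites, and with some of the MXD proteins and MNT. In germinal centre B cells MYC marks the cells selected for further rounds of division, and BCL6, the repressor named with PRMT5 in the series title, is known to hold MYC down.

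The deepest library, vehicle replicate 1 at 96 h, had 547.9 M counts, and the other 11 had 48.5 to 64.4 M. Markers of B cells (7 of 7) stood above 10 CPM (counts scaled to library size, here with TMM factors) in every library. For 14 markers of other cells (T, myeloid, stromal and epithelial) the summed level was between 0.383 and 1.12 CPM in the vehicle and 24 h GSK591 libraries and between 1.49 and 2.70 CPM after 96 h of GSK591. Of the 14, CD14 and COL1A1 were the 2 that passed 1 CPM in any library, and CD3D and KRT19 were at 0 throughout. Which markers carried the higher sum after 96 h of GSK591 was not tested. The part of these markers in the results was not tested. PRMT5 itself, the drug target, was not called at either time (log2 fold change 0.00 ± 0.03 SE, adjusted p = 0.984 at 24 h, and -0.06 ± 0.05, adjusted p = 0.373 at 96 h, edgeR's quasi-likelihood test); its RNA level does not measure inhibition of the enzyme. The vehicle and the GSK591 library numbered 2 at 96 h each differed from the rest of its group. The 96 h results are therefore also given without them where that changes a call or a size. They were picked from these same data, and leaving out libraries that stand apart lowers the spread. Calls and p-values without them describe how far the results rest on these libraries and are no independent test.

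After 96 h of GSK591, MYC and MXD3 fell, while MXD1, MXD4, MLX, MLXIP and MGA rose. These were 7 of the 10 members, 5 higher and 2 lower, where 40.2% of all 13514 genes tested were called (adjusted p under 0.05), 20.7% higher and 19.6% lower. After 24 h the changes were small: MAX, MLX and MLXIP rose and MXD3 fell, 4 of 10 members against 14.7% of 13173 genes (7.44% higher and 7.29% lower). Leaving out 1 library of 24 h gave 1 to 4 members, where 980 to 2208 genes were called. With all 12 libraries in 1 fit, 0 members (2 at an unadjusted p under 0.05) and 29 genes were called at 24 h. The median log2 fold change of the 10 members was 0.15 at 96 h and 0.06 at 24 h, against 0.00 for all genes tested at each time. The libraries of 5 members lay wholly above and of 1 wholly below vehicle at 24 h, where this held for 19.2% and 13.6% of all genes tested. At 96 h it held for 5 members above and 3 below, against 24.0% and 30.7% of all genes. The members were listed with earlier results of these data in view, so these counts describe the list and do not set it apart from other genes. Without both 96 h libraries numbered 2, 9 of the 10 members were called at 96 h, 6 higher and 3 lower. In that fit 30.2% of all genes tested were called higher and 30.2% lower. Leaving out 1 library of 96 h gave 5 to 8 members, where 3438 to 7485 genes were called.

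**Figure D1:**
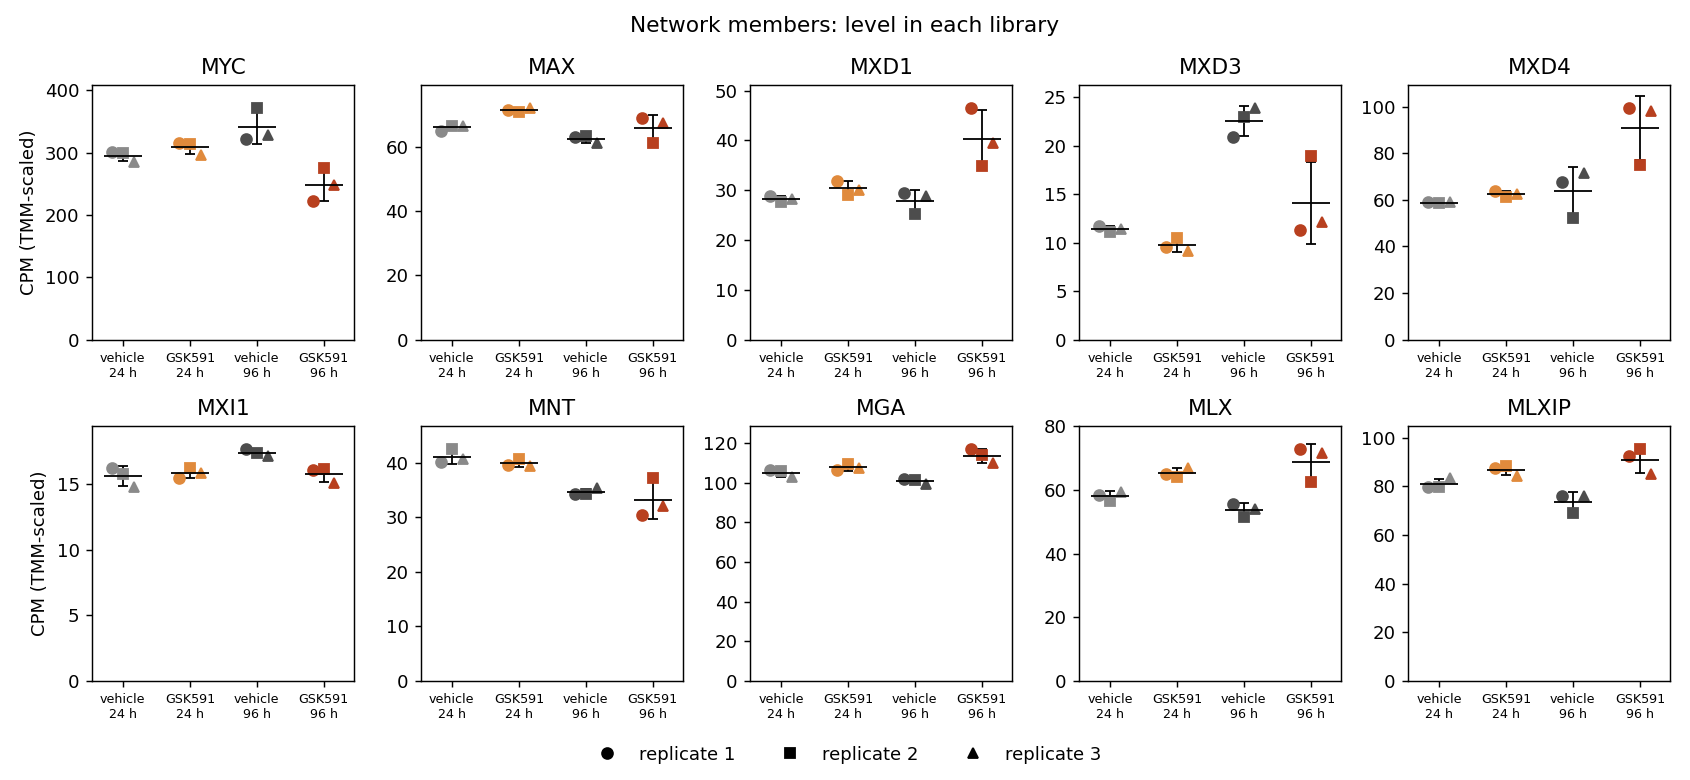
Level of each network member (CPM after TMM scaling over all 12 libraries, linear axes from 0) in the 4 groups; symbols are the 3 replicates, horizontal bars the mean and vertical bars the SD. MYC at 96 h lay between 322 and 372 CPM in vehicle and between 222 and 276 CPM in GSK591, whereas the MXD1 and MXD4 libraries of GSK591 at 96 h lay above those of vehicle.

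Among the members, MYC had by far the highest level per length of transcript. In vehicle at 24 h it stood at 98.3 ± 2.69 CPM per kb of exon (SD, n = 3), followed by MLX at 22.4 ± 0.564, MAX at 16.1 ± 0.218 and MXD4 at 14.5 ± 0.0554. MLXIP (8.60 ± 0.225) and MNT (8.22 ± 0.252) were within 2 SD of each other, MGA stood at 6.92 ± 0.134 and MXD1 at 5.03 ± 0.099. MXI1 (3.86 ± 0.182) and MXD3 (3.47 ± 0.102) were the lowest. The lengths are the joined exons of each gene in GENCODE 29 on GRCh38, whereas the counts were made on hg19, so these values serve for order only. After 96 h of GSK591 the order had MLX at 26.6 ± 2.18 and MXD4 at 22.4 ± 3.37 CPM per kb next below MYC at 82.9 ± 8.95.

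MYC, the activator of the network, was not called at 24 h and fell at 96 h. At 24 h it stood at 300.4, 298.9 and 285.8 CPM in vehicle and at 315.8, 313.7 and 296.3 CPM in GSK591. The groups overlapped, and the log2 fold change of 0.05 ± 0.03 did not pass edgeR's quasi-likelihood test (adjusted p = 0.186). At 96 h it stood at 322.2, 371.6 and 327.9 CPM in vehicle and at 222.1, 275.8 and 248.1 CPM in GSK591. The treated libraries were all below the vehicle libraries, MYC fell by 0.43 ± 0.09 on the log2 scale (0.743-fold, adjusted p = 0.00652), and this call held under all 15 other settings (adjusted p up to 0.0300). The 96 h effect minus the 24 h effect was -0.50 ± 0.10 (adjusted p = 0.00397), in a fit of all 12 libraries in which 24.1% of 13665 genes were called, 11.0% higher and 13.2% lower. Across the 4 groups MYC was highest in vehicle at 96 h (340.5 ± 27.0 CPM), then GSK591 at 24 h (308.6 ± 10.7), vehicle at 24 h (295.0 ± 8.06) and GSK591 at 96 h (248.7 ± 26.8). Neighbours in this order did not overlap, except the vehicle and GSK591 groups of 24 h, whose libraries did. The level in vehicle at 96 h was 1.15 times that at 24 h, and time in culture and a batch of each time cannot be told apart there. In bulk RNA, a change in the share of cells that express a gene and a change in the RNA per cell cannot be told apart either.

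MAX, the partner of MYC and of the antagonists, moved little. It stood at 65.1, 66.7 and 66.7 CPM in vehicle and at 71.5, 70.9 and 72.2 CPM in GSK591 at 24 h, and the groups did not overlap. The rise was 0.10 ± 0.03 on the log2 scale (adjusted p = 0.0182). Its call was lost with library size alone (adjusted p = 0.0517), with all 12 libraries in 1 fit (adjusted p = 0.420) and on leaving out either replicate 1 (adjusted p = 0.0708 for the vehicle one and 0.0705 for the treated one) or treated replicate 3 (adjusted p = 0.0717). At 96 h the vehicle libraries held 63.3, 63.5 and 61.2 CPM and the GSK591 libraries 69.2, 61.2 and 67.5 CPM. The groups overlapped through GSK591 replicate 2, and the log2 fold change of 0.10 ± 0.06 was not called (adjusted p = 0.201). Without both libraries numbered 2 it was 0.15 ± 0.04 and called (adjusted p = 0.00462). The number of MYC counts for each MAX count, which does not depend on library scaling, was 5.09, 5.85 and 5.36 in the 96 h vehicle libraries and 3.21, 4.51 and 3.68 in the 96 h GSK591 libraries. At 24 h it was 4.61, 4.48 and 4.28 in vehicle and 4.42, 4.42 and 4.10 in GSK591, so the ranges were apart at 96 h and overlapped at 24 h.

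**Figure D2:**
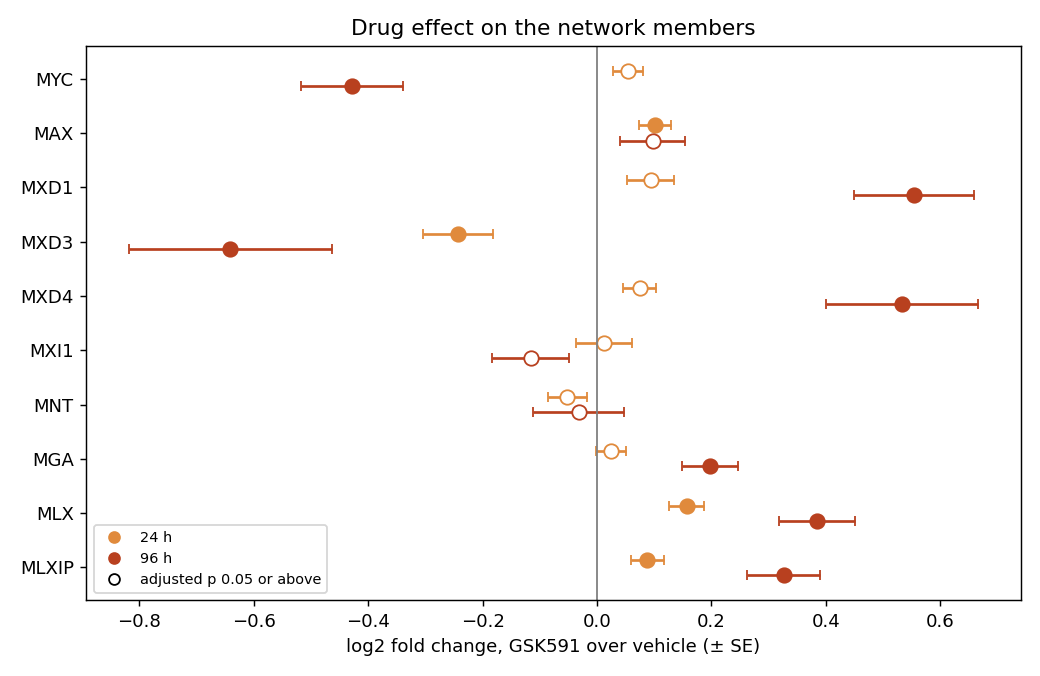
Log2 fold change of GSK591 over vehicle for each member at 24 h and 96 h, with bars for the SE from edgeR's quasi-likelihood fit; open symbols did not pass an adjusted p of 0.05. At 96 h MYC (-0.43) and MXD3 (-0.64) lie left of 0 and MXD1 (0.55), MXD4 (0.53), MLX (0.38), MLXIP (0.33) and MGA (0.20) to the right.

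The MXD genes, whose products compete with MYC for MAX, did not move as a block: MXD1 and MXD4 rose at 96 h, MXD3 fell and MXI1 was not called. MXD1, the founding antagonist of the group and a marker of differentiating cells, stood at 29.4, 25.3 and 28.8 CPM in vehicle at 96 h and at 46.5, 34.8 and 39.5 CPM in GSK591. All treated libraries were above all vehicle libraries, and the rise of 0.55 ± 0.10 (1.47-fold, adjusted p = 0.00459) was called under all 15 other settings (adjusted p up to 0.0257). At 24 h MXD1 held 28.8, 27.7 and 28.2 CPM in vehicle and 31.9, 29.1 and 30.1 in GSK591, apart by a narrow gap, and its log2 fold change of 0.09 ± 0.04 did not pass (adjusted p = 0.137). It passed without GSK591 replicate 2 (adjusted p = 0.0441). The effect at 96 h exceeded that at 24 h by 0.44 ± 0.12 (adjusted p = 0.0209). Leaving out 1 of 4 libraries ended that call, namely the vehicle replicates 1 (adjusted p = 0.0507) and 3 (0.0511) and treated replicate 2 (0.0585) of 24 h and vehicle replicate 2 of 96 h (0.0531).

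MXD4, a MAX partner of resting and differentiated cells, rose by a similar amount. It stood at 67.7, 52.2 and 71.5 CPM in vehicle at 96 h and at 99.5, 75.2 and 98.3 CPM in GSK591. The groups did not overlap, although the lowest library of each was replicate 2, and the log2 fold change was 0.53 ± 0.13 (1.45-fold, adjusted p = 0.0133). The call was lost without GSK591 replicate 3 (adjusted p = 0.0546). At 24 h the libraries held 59.0, 58.5 and 58.9 CPM in vehicle and 63.7, 61.1 and 62.5 in GSK591. These did not overlap either, but the change of 0.07 ± 0.03 did not pass over all genes (adjusted p = 0.0955). The difference between the times was 0.44 ± 0.15 (adjusted p = 0.0473), a call lost when any 1 library was left out except GSK591 replicate 2 or vehicle replicate 3 of 96 h (adjusted p up to 0.109).

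MXD3, a MAX partner that is expressed in cycling cells, went the other way. At 24 h it stood at 11.8, 11.1 and 11.4 CPM in vehicle and at 9.58, 10.4 and 9.12 CPM in GSK591, without overlap, and fell by 0.24 ± 0.06 (adjusted p = 0.0106). At 96 h it stood at 20.9, 22.9 and 23.9 CPM in vehicle and at 11.3, 19.0 and 12.1 CPM in GSK591. It fell by 0.64 ± 0.18 (0.641-fold, adjusted p = 0.0203), with GSK591 replicate 2 well above the other treated libraries. The 96 h call was lost without vehicle replicate 2 or 3 or GSK591 replicate 1 or 3 (adjusted p = 0.0715, 0.0532, 0.0583 and 0.0777), and the 24 h call without replicate 1 of vehicle (adjusted p = 0.0518), without replicate 3 of GSK591 (0.0679) and with all 12 libraries in 1 fit (0.587). The effects at the times did not differ past the threshold (-0.41 ± 0.21, adjusted p = 0.162), but without both 96 h libraries numbered 2 the difference was -0.66 ± 0.10 (adjusted p = 1.92e-05). MXD3 also showed the widest gap of the members between the vehicle groups, 1.98 times higher at 96 h than at 24 h, and the treated libraries numbered 1 and 3 at 96 h lay at the level of vehicle at 24 h.

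MXI1 (MXD2), a further antagonist, and MNT, the most broadly expressed of them, were not called at either time. MXI1 stood at 17.7, 17.4 and 17.2 CPM in vehicle and 16.1, 16.2 and 15.1 CPM in GSK591 at 96 h, which did not overlap. The change of -0.12 ± 0.07 did not pass edgeR's quasi-likelihood test (adjusted p = 0.189). It passed under 1 of 15 other settings, all 12 libraries in 1 fit (adjusted p = 0.0469, same test). At 24 h its log2 fold change was 0.01 ± 0.05 (adjusted p = 0.898), and its sign turned with library size alone. MNT stood at 34.2, 34.4 and 35.3 CPM in vehicle and 30.5, 37.2 and 32.0 CPM in GSK591 at 96 h, so that GSK591 replicate 2 was above and the other treated libraries below every vehicle library. Its log2 fold change was -0.03 ± 0.08 (adjusted p = 0.769) and became -0.13 ± 0.05 without both libraries numbered 2, where it was called lower (adjusted p = 0.0346). At 24 h MNT was at -0.05 ± 0.03 (adjusted p = 0.334). In vehicle MNT was 0.843 times as high at 96 h as at 24 h, with no overlap.

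The ratio of antagonist to MYC counts within a library shows the same libraries without any scaling. MXD4 counts came to 0.210, 0.140 and 0.218 of the MYC counts in vehicle at 96 h and to 0.448, 0.273 and 0.396 in GSK591. MXD1 counts came to 0.0911, 0.0681 and 0.0879 in vehicle and to 0.209, 0.126 and 0.159 in GSK591. For both genes the lowest treated library was above the highest vehicle library. MXD3 counts came to 0.0649, 0.0617 and 0.0729 of the MYC counts in vehicle and to 0.0508, 0.0689 and 0.0489 in GSK591, which overlapped. MNT, which was not called itself, came to 0.106, 0.0925 and 0.108 in vehicle and to 0.137, 0.135 and 0.129 in GSK591, without overlap. MYC, the denominator, fell at 96 h, so a ratio can rise without a rise of the antagonist. At 24 h the MXD4 ratio was 0.199 ± 0.00577 in vehicle and 0.202 ± 0.00810 in GSK591 (SD, n = 3), a difference within the spread. The MXD1 ratios of 24 h overlapped too. The MXD3 ratio was 0.0387 ± 0.00146 in vehicle and 0.0315 ± 0.00156 in GSK591 at 24 h, and the MNT ratio 0.139 ± 0.00502 and 0.129 ± 0.00367. For MXD3 and MNT every treated library of 24 h was below every vehicle library, for MNT by a narrow gap. These are ratios of counts and so include the difference in transcript length, and only their change between libraries can be read.

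**Figure D3:**
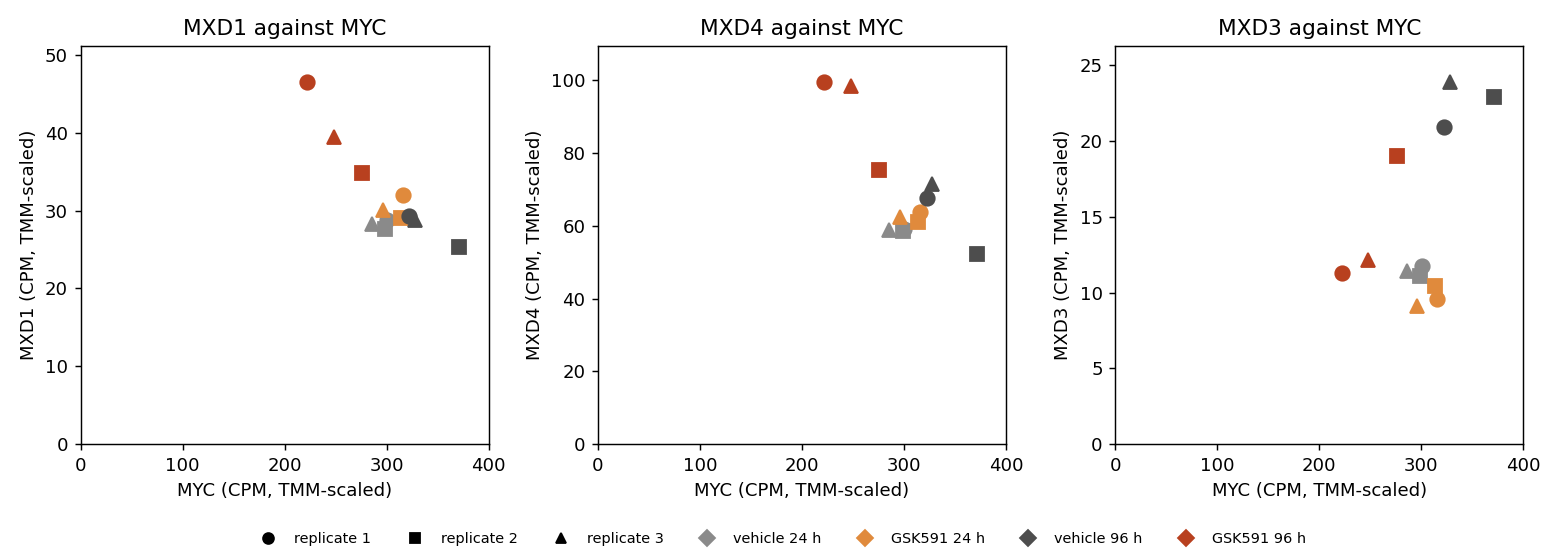
MXD1, MXD4 and MXD3 against MYC in each of the 12 libraries (CPM after TMM scaling, axes from 0); colours are groups and symbols replicates. The squares mark replicate 2, which at 96 h has the highest MYC and the lowest MXD1 and MXD4 of its group in vehicle (MYC 371.6 CPM) and in GSK591 (MYC 275.8 CPM).

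Within the 96 h groups replicate 2 stood apart in the same direction for some of the members and not for others. Replicate 2 had the highest MYC and the lowest MXD1, MXD4 and MLX of its group, in vehicle as in GSK591. On the log2 scale MYC in replicate 2 was 0.19 above the mean of replicates 1 and 3 in vehicle and 0.23 above it in GSK591. MXD4 was -0.42 and -0.39 relative to that mean, and MXD1 -0.20 and -0.30. MXD3 was 0.04 in vehicle and 0.70 in GSK591. The direction differed between vehicle and GSK591 for MLXIP (-0.13 and 0.10), MAX (0.03 and -0.16) and MNT (-0.02 and 0.25). MGA (0.01 and 0.01) and MXI1 (0.00 and 0.05) hardly shifted. The labels give no difference in handling of the libraries numbered 2. Without them the 96 h log2 fold changes were -0.45 ± 0.05 for MYC, 0.58 ± 0.06 for MXD1, 0.53 ± 0.04 for MXD4 and -0.89 ± 0.08 for MXD3.

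Over the 12 libraries, with each gene centred on the mean of its time, MYC correlated with MXD3 at r = 0.85, with MXI1 at 0.74 and with MNT at 0.55, and negatively with MXD1 (r = -0.93), MXD4 (-0.91), MLX (-0.84), MGA (-0.80), MLXIP (-0.76) and MAX (-0.47). The points share the treatment contrast and the libraries numbered 2, so these are descriptions of the same 12 libraries and no test. Of 8742 other genes (average log2 CPM 3 or more), the 5 most like MYC by this measure were RUVBL2, an ATPase known as a cofactor of MYC (r = 0.99), GALNT2, an enzyme that starts O-linked glycosylation (0.99), TCOF1, a factor of ribosomal RNA transcription (0.99), NAF1, an assembly factor of box H/ACA particles (0.99), and TKT, the transketolase of the pentose phosphate pathway (0.99). At 96 h they changed by -0.33 ± 0.08, -0.26 ± 0.08, -0.29 ± 0.07, -0.25 ± 0.08 and -0.39 ± 0.09 in that order. Since they were chosen by their likeness to MYC over libraries that carry the treatment contrast, their direction follows from the choice and is given as a description.

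MLX and its partner MLXIP, the hub that runs beside MAX, both rose at both times. MLX stood at 58.3, 56.6 and 59.5 CPM in vehicle and 65.1, 64.2 and 66.9 CPM in GSK591 at 24 h. At 96 h it stood at 55.6, 51.4 and 53.9 CPM in vehicle and 72.8, 62.5 and 71.6 CPM in GSK591. The groups did not overlap at either time, and MLX rose by 0.16 ± 0.03 at 24 h (adjusted p = 0.00198) and by 0.38 ± 0.07 at 96 h (1.31-fold, adjusted p = 0.00330). The 96 h call held under all 15 other settings (adjusted p up to 0.0185). The difference between the times was 0.21 ± 0.08 (adjusted p = 0.0625). It passed under 6 of 20 other settings, among them the fit without both 96 h libraries numbered 2 (adjusted p = 0.000281). The 24 h call was lost with all 12 libraries in 1 fit (adjusted p = 0.283).

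MLXIP held 79.8, 79.7 and 83.4 CPM in vehicle and 87.7, 88.2 and 84.4 CPM in GSK591 at 24 h. At 96 h it held 76.0, 69.2 and 75.9 CPM in vehicle and 92.4, 95.2 and 84.9 CPM in GSK591. Again no group overlapped its control. The rise of 0.09 ± 0.03 at 24 h lay just inside the threshold (adjusted p = 0.0483) and was lost under 8 of 13 other settings, among them DESeq2 (adjusted p = 0.0696) and the fits without replicate 1 or 2 of either group (adjusted p up to 0.183). The rise of 0.33 ± 0.06 at 96 h (1.25-fold, adjusted p = 0.00534) held under all 15 (adjusted p up to 0.0249). The effect was larger at 96 h by 0.22 ± 0.07 (adjusted p = 0.0312), a call lost with no filter and without any library of 24 h, vehicle replicate 2 or GSK591 replicate 1 of 96 h (adjusted p up to 0.0999).

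MGA, the largest protein of the network, which pairs with MAX and is the scaffold of a Polycomb complex called PRC1.6, was called at 96 h and not at 24 h. It stood at 101.8, 101.1 and 99.2 CPM in vehicle and at 116.8, 114.0 and 109.8 CPM in GSK591. The gain of 0.20 ± 0.05 (1.15-fold, adjusted p = 0.0127) was the smallest of the 5 rises and was lost without vehicle replicate 1 or 3 or GSK591 replicate 1 (adjusted p = 0.0588, 0.0627 and 0.0591). At 24 h it held 106.5, 105.9 and 102.7 CPM in vehicle and 106.3, 109.5 and 107.2 CPM in GSK591, with overlap (0.02 ± 0.03, adjusted p = 0.579). The effects differed between the times by 0.16 ± 0.05 (adjusted p = 0.0345), a call lost with no filter and without any 1 library other than GSK591 replicate 2 or 3 of 96 h (adjusted p up to 0.107).

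Some members share their locus with another gene in RefSeq, and no source used here gives the strand setting of the counting, so shared reads cannot be told apart. PSMC3IP, a recombination factor beside MLX, fell at 96 h (-0.55 ± 0.11, from 5.96 to 3.97 CPM), against the rise of MLX at about 54 to 69 CPM. PRELID1, beside MXD3, was not called at 96 h (-0.11 ± 0.05) at 38.9 CPM in vehicle. ASPRV1, which overlaps MXD1, was near 1 to 2 CPM and rose at 96 h, as MXD1 did (0.89 ± 0.18, adjusted p = 0.00583, edgeR's quasi-likelihood test). FNTB, which overlaps MAX, stood below 1 CPM in all group means.

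The start regions of the members show which of them carry the E-box that the network itself reads. The motif searched was CACGTG, which reads the same on both strands, in the 250 bases before each gene start listed in RefSeq on GRCh38.p14. Of the 9 members with a window there, 3 hold it: MXD4, MNT and MLX. Among genes tested at 24 h or 96 h, 1044 of 9288 with a window hold it (11.2%), and among all windows 6.34%. The windows are shown because they hold the network's own motif in members that rose at 96 h (MXD4 and MLX) and in a member that was not called (MNT). They are MXD4 at chr4:2262110-2262359 (minus strand), MNT at chr17:2401061-2401310 (minus strand) and MLX at chr17:42566850-42567099 (plus strand), each written 5′ to 3′ up to the base before the start, with the E-box in capitals.
MXD4: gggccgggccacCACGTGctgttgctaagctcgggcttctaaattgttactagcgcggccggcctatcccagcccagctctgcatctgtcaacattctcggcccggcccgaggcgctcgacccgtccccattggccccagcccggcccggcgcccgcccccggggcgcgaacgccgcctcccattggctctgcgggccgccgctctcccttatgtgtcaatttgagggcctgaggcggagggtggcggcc
MNT: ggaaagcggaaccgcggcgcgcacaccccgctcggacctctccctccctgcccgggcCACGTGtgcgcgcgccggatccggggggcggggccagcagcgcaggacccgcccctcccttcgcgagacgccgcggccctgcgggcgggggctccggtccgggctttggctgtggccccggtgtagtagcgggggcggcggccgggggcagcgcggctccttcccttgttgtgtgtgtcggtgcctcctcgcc
MLX: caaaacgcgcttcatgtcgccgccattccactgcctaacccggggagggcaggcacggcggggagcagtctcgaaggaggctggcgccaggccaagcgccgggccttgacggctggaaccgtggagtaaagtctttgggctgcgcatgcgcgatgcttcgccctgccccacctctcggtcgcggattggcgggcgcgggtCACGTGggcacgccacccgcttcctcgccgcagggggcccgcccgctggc
The E-box begins 238 bases before the start in MXD4, 193 in MNT and 50 in MLX. MXD1, MXD3, MAX, MXI1, MGA and MLXIP have no CACGTG in their windows, which says only that these letters are absent there. No binding was measured in these data.

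The counts of the 8 lists of partners and targets that follow can be read against all genes tested, of which 20.7% rose and 19.6% fell at 96 h, 7.44% and 7.29% did so at 24 h, and 30.2% each way at 96 h without both libraries numbered 2. With all 12 libraries in 1 fit, edgeR called 0 genes of any list at 24 h (0 to 5 genes a list at an unadjusted p under 0.05), and DESeq2 on the 24 h libraries called 0 to 7 a list.

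Of 10 other factors that read E-boxes through a related domain 7 were tested, and at 96 h 2 rose and 2 fell, with a median log2 fold change of 0.08. Without both libraries numbered 2, 3 rose and 2 fell. USF1, a broadly expressed E-box activator, rose from 88.9 ± 8.20 to 163 ± 25.5 CPM (0.89 ± 0.11, adjusted p = 0.00109), after a rise of 0.20 ± 0.03 at 24 h (adjusted p = 0.000232, and 0.436 with all 12 libraries in 1 fit). TFEC rose from a low level (2.05 to 3.44 CPM, 0.76 ± 0.18, adjusted p = 0.0113), and TFEB, a regulator of lysosome genes, was not called at 96 h (0.08 ± 0.05, adjusted p = 0.258). Of the MYC relatives, MYCL (MYCL1 in the files) was near 1 to 2 CPM and fell at 96 h (-0.50 ± 0.17, adjusted p = 0.0466, named after its values were seen), and MYCN was at 0 counts in all libraries. MLXIPL (ChREBP), the other MLX partner of the MLXIP type, stayed below 0.2 CPM in all group means.

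Among cofactors of MYC and proteins that control its turnover, 6 of 25 tested genes rose and 7 fell at 96 h, and the median was 0.00. These shares are near those of all genes, and without both libraries numbered 2 the counts were 9 and 11. HCFC1, a chromatin adaptor that binds MYC, went from 504 ± 21.9 to 619 ± 11.1 CPM (0.32 ± 0.05, adjusted p = 0.00310). TRRAP, the scaffold of acetyltransferase complexes, rose by 0.24 ± 0.05. Those that fell held the acetyltransferases KAT5 (-0.37 ± 0.09) and KAT2A (-0.37 ± 0.08) and the ATPases RUVBL1 (-0.30 ± 0.07) and RUVBL2. The elongation kinase CDK9 fell too (-0.34 ± 0.05, adjusted p = 0.00252, edgeR's quasi-likelihood test). So did WDR5, a further chromatin adaptor of MYC (-0.36 ± 0.07), and SKP2, a ubiquitin ligase subunit (-0.55 ± 0.13). EP400 (-0.12 ± 0.08) and ACTL6A (-0.19 ± 0.08), of the same list, were not called. At 24 h 4 rose, among them HCFC1, TRRAP and the CDK9 partner CCNT1. KAT5, KAT2A, TRRAP, RUVBL1, SKP2, CCNT1, EP400 and ACTL6A were chosen as examples after their values were seen.

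Of the SIN3 corepressor, through which MXD proteins and MNT lower transcription, 5 of 16 genes rose and 1 fell at 96 h (median 0.04) and 4 rose at 24 h. Without both libraries numbered 2, 8 rose and 2 fell at 96 h (median 0.10). ARID4A, a subunit that also binds the retinoblastoma protein, rose from 65.0 ± 2.68 to 108 ± 17.4 CPM (0.75 ± 0.10, adjusted p = 0.00154). SIN3B rose (0.34 ± 0.08) whereas its paralog SIN3A was at -0.13 ± 0.05 and not called (adjusted p = 0.0798); both were chosen after their values were seen. ING2, a reader of methylated histone H3, fell from 11.2 ± 0.322 to 7.75 ± 0.0989 CPM (-0.51 ± 0.08, adjusted p = 0.00209). HDAC1, the deacetylase, rose by 0.23 ± 0.08 with overlapping groups (adjusted p = 0.0398), and its call was lost with no filter and without any library but GSK591 replicate 2.

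Of 13 genes of PRC1.6, the complex built on MGA, 1 rose and 3 fell at 96 h (median -0.03). Without both libraries numbered 2, 4 rose and 3 fell, which is near the share of all genes. HDAC1, also in this list, was the gene that rose. PCGF6, the subunit that defines this Polycomb complex, fell from 20.5 ± 0.577 to 14.9 ± 0.254 CPM (-0.43 ± 0.06, adjusted p = 0.00188), and WDR5 and the E2F partner TFDP1 (-0.19 ± 0.05, named after its values were seen) fell as well. YAF2 rose at 24 h (0.14 ± 0.04, adjusted p = 0.0342). Its call was lost under 9 of 13 other settings (adjusted p up to 0.297), among them each fit with 1 library left out (adjusted p up to 0.124). Of 8 germline genes that PRC1.6 or E2F6 is known to repress, 3 had enough counts to be tested. SYCP3, of the synaptonemal complex, rose near the floor (from 0.624 to 1.19 CPM, 0.95 ± 0.17, adjusted p = 0.00403), TDRKH fell (-0.31 ± 0.08, adjusted p = 0.0123, and 0.0519 without GSK591 replicate 3), and STAG3 was not called (-0.01 ± 0.08).

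**Figure D4:**
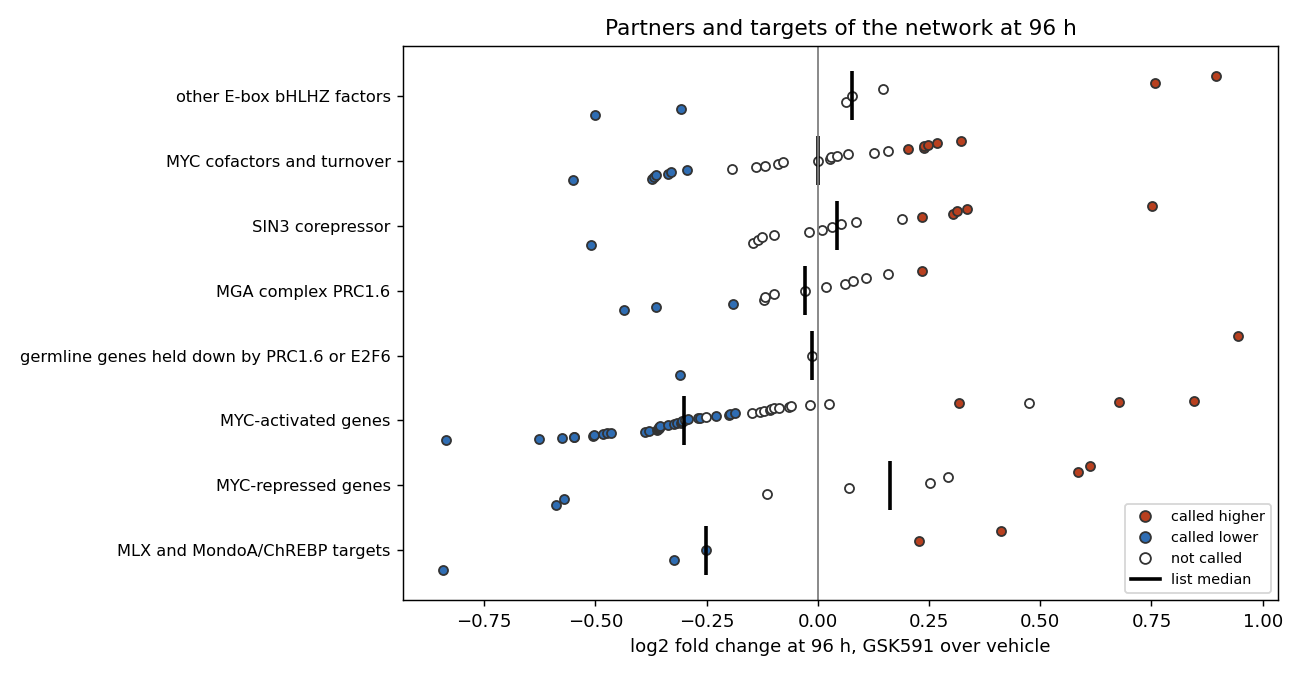
Log2 fold change at 96 h of each tested gene in 8 lists of partners and targets of the network; filled symbols passed an adjusted p of 0.05, red higher and blue lower, and black bars are list medians. Of the 48 MYC-activated genes 31 are called lower and 3 higher (median -0.30), and the cofactor list is spread to both sides around 0.00.

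Genes that MYC is known to activate were lower at 96 h. Of 48 tested, 31 fell and 3 rose, with a median log2 fold change of -0.30 against 0.00 for all genes tested, of which 19.6% fell and 20.7% rose. At 24 h 6 fell and 2 rose (median 0.02). That genes of MYC and ribosome biogenesis fell at 96 h was known when the list was made, so its direction is no independent evidence. ODC1, the first enzyme of polyamine synthesis and a textbook MYC target, went from 323 ± 46.9 to 217 ± 26.6 CPM (-0.55 ± 0.12). CDK4, the G1 kinase, went from 112 ± 9.70 to 77.4 ± 7.13 CPM (-0.51 ± 0.08), and SHMT1, an enzyme of one-carbon metabolism, from 47.3 ± 2.99 to 32.8 ± 1.69 CPM (-0.50 ± 0.07, adjusted p = 0.00130). NCL, the nucleolar protein nucleolin, and LDHA, lactate dehydrogenase, fell by 0.36 ± 0.07 and 0.39 ± 0.07. The genes that rose were NOP2, a methyltransferase of ribosomal RNA (from 184 ± 5.76 to 325 ± 17.6 CPM, 0.85 ± 0.06, adjusted p = 0.000219), TFRC, the transferrin receptor (0.32 ± 0.08), and CCND2, a cyclin at 1 to 2 CPM (0.68 ± 0.19). Without both libraries numbered 2, 33 fell and 4 rose. In vehicle, ODC1, CDK4, NCL and LDHA were 0.625, 0.698, 0.617 and 0.610 times as high at 96 h as at 24 h. NOP2 and TFRC were at 0.762 and 0.570 there, SHMT1 at 0.967 with overlap, and CCND2 at 1.83. MYC itself was 1.15 times as high in that comparison, so these genes did not all move with MYC. Time in culture and a batch of each time cannot be told apart there. EIF4A1 is listed at 0 in every library and was not tested. ODC1, CDK4, NCL, LDHA, TFRC and CCND2 were named after their values were seen.

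Of 8 tested genes that MYC is known to repress, 2 rose and 2 fell at 96 h (median 0.16), near the shares of all genes. Without both libraries numbered 2, 4 rose and 2 fell (median 0.24). The cell cycle inhibitor CDKN1A fell from 44.0 ± 0.915 to 28.7 ± 2.88 CPM (-0.59 ± 0.08, adjusted p = 0.00122), and GADD45A, a stress sensor, from 6.22 ± 0.580 to 4.08 ± 0.605 CPM (-0.57 ± 0.13, adjusted p = 0.0108). FTH1, the ferritin heavy chain, was not called (-0.11 ± 0.06, adjusted p = 0.145). The genes that rose, CCND1 (0.61 ± 0.17) and CEBPA (0.58 ± 0.19), had an average log2 CPM of 0.25 and -0.55 and were named after their values were seen.

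Of 5 tested targets of the MLX hub, 2 rose and 3 fell at 96 h, with the same counts without both libraries numbered 2, and 0 were called at 24 h by edgeR's test (1 at an unadjusted p under 0.05, TXNIP, at -0.07 ± 0.03 and adjusted p = 0.115, and 0 by DESeq2). TXNIP, an inhibitor of glucose uptake and the best known MLXIP target, went from 163 ± 5.76 to 187 ± 7.49 CPM at 96 h (0.23 ± 0.05, adjusted p = 0.00992). Its 96 h call was lost without vehicle replicate 1 or 3 (adjusted p = 0.0537 and 0.0557). PFKFB3, which makes an activator of glycolysis, rose from 54.0 ± 1.25 to 70.6 ± 5.75 CPM (0.41 ± 0.06, adjusted p = 0.00238). RGS16, a regulator of G-protein signalling, fell from 24.6 ± 1.09 to 13.5 ± 2.26 CPM (-0.84 ± 0.11, adjusted p = 0.00143), KLF10 by 0.25 ± 0.06 and the hexokinase HK2, also in the list of MYC-activated genes and named after its values were seen, by 0.32 ± 0.09. ARRDC4, the other classical MLXIP target, is listed at 0 in every library.

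In the authors' deposited tables the same members pass the threshold at 96 h as here, but not at 24 h. At 96 h the authors' log2 fold change of MYC is -0.42 (FDR 3.83e-05), of MXD1 0.56 (FDR 1.09e-05), of MXD4 0.53, of MXD3 -0.64, of MLX 0.39, of MLXIP 0.33 and of MGA 0.20 (FDR 0.0264), while MAX, MXI1 and MNT are above 0.05 there. At 24 h the authors' deposited table has an FDR under 0.05 for MXD3 (-0.26, FDR 0.000743) and MLX (0.14, FDR 0.00113) and not for MAX (0.08, FDR 0.0587) or MLXIP (0.07, FDR 0.234). MAX and MLXIP were also not called at 24 h here when libraries were scaled by their size alone.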

How the data were processed

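Poly(A) RNA of SUDHL6 cells was sequenced in 4 groups of 3 libraries. The authors deposited whole-number counts per gene symbol, and, per the submitters' processing notes, used STAR, HTSeq and edgeR with hg19 (GRCh37). No source used here gives versions or the strand setting. The authors' deposited tables also hold a log2 fold change, a log2 CPM, p-values and an FDR per gene.

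The counts were fitted with edgeR 4.0.16 (R 4.3.3): filterByExpr, TMM factors, quasi-likelihood test, Benjamini-Hochberg over all genes tested, called at an adjusted p under 0.05. Each time was fitted on its own 6 libraries, and the difference between times on all 12 with 4 group means. The common biological coefficient of variation was 2.35% in the 24 h fit, 8.19% in the 96 h fit and 5.90% in the fit of all 12. The p-values of the difference thus rest on a spread pooled over times of unequal spread. SE is the log2 fold change over the square root of F. CPM used TMM factors over 12 libraries. Alternatives were other scalings and filters, DESeq2 1.42.0, a replicate block, all 12 libraries in 1 fit, the deepest library thinned, and libraries left out. The scripts were tested on simulated data.

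The members and the gene lists were chosen with earlier results of these data known. Named were all members, PRMT5, the 2 genes of each list with the smallest p at each time, and the 5 genes most correlated with MYC; others are marked, and 1 named gene is not reported here. The labels do not say that replicates were separate cultures, so p-values reflect only how these samples vary, and that spread may be technical.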

Additional observations from a re-analysis of the deposited data

Results flagged for a closer look

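The drug effect differed between the times, by edgeR's quasi-likelihood test of the difference in the fit of all 12 libraries, for 5 of the 10 members and for the other genes named below, where 24.1% of all 13665 genes tested were called. The other genes were named for a small p-value within their list, so their number has no reference. The values are log2 fold changes at 96 h minus those at 24 h. Among the members they were -0.50 for MYC (adjusted p = 0.00397), 0.44 for MXD1 (adjusted p = 0.0209), 0.44 for MXD4 (adjusted p = 0.0473), 0.22 for MLXIP (adjusted p = 0.0312) and 0.16 for MGA (adjusted p = 0.0345). Among partners they were 0.68 for USF1, 0.59 for ARID4A, 0.21 for HCFC1, -0.29 for CDK9, -0.36 for WDR5, -0.42 for ING2 and -0.32 for PCGF6. Among targets of MYC they were 0.67 for NOP2, -0.29 for SHMT1 and -0.47 for CDKN1A. Among targets of the MLX hub they were 0.29 for TXNIP, 0.37 for PFKFB3, -0.23 for KLF10 and -0.79 for RGS16. The KLF10 call was lost without vehicle replicate 1 or 3 or GSK591 replicate 2 or 3 of 24 h, or GSK591 replicate 1 of 96 h (adjusted p up to 0.0731). The genes most like MYC were chosen over these same libraries, so their values are a description, with no test: -0.38 for RUVBL2, -0.33 for GALNT2, -0.33 for TCOF1, -0.32 for NAF1 and -0.48 for TKT.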

How the results depend on the processing

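Of the members' values under other settings, 391 kept direction and side of the threshold, 59 lost a call, 13 gained one and 17 turned sign; for the other named genes these were 1335, 53, 27 and 17. The cause was not tested for any change below. With all 12 libraries in 1 fit at 24 h, 29 genes and 0 members were called by edgeR (2 members at an unadjusted p under 0.05; DESeq2 on the 24 h libraries called 3). Library size alone called 2 members at 24 h and split the calls into 563 higher and 1220 lower, against 980 and 960 with TMM; for the difference the split was 1778 and 1474 against 1499 and 1799. With no filter 3 members were called for the difference. Without both 96 h libraries numbered 2, 8201 genes were called at 96 h and 6022 for the difference. Leaving out 1 library gave 980 to 2208 genes at 24 h, 3438 to 7485 at 96 h and 1991 to 5712 for the difference. The members called were then 1 to 4 at 24 h, 5 to 8 at 96 h and 1 to 7 for the difference. At 24 h the fewest genes were called without GSK591 replicate 1; at 96 h the fewest without GSK591 replicate 1 and the most without GSK591 replicate 2.

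Sign changes were all in values that were not called in the fit reported. The difference for MAX was 0.00058 with at least 5 CPM in 3 samples, 0.016 with library size alone, 0.037 without both libraries numbered 2 and -0.056 to 0.037 leaving out 1 library. For MNT it was -0.014 with no filter, -0.086 without both, -0.0040 with the deepest library thinned and -0.078 to 0.062 leaving out 1, and at 96 h MNT ran from -0.13 to 0.019. At 24 h MXI1 was -0.0054 with library size alone and -0.023 to 0.043 leaving out 1; PRMT5 was -0.0043 at 5 CPM, -0.016 with library size alone and -0.031 to 0.022; PFKFB3 ran from -0.0011 to 0.040, SYCP3 from -0.031 to 0.62 and WDR5 from -0.039 to 0.0060. STAG3 at 96 h ran from -0.087 to 0.034. The difference for TFEB was 0.011 at 5 CPM, 0.026 with library size alone and -0.042 to 0.018, and for FTH1 0.0054 without both.

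Same-numbered vehicle and GSK591 libraries correlated in their deviations at 0.086, 0.48 and 0.085 at 24 h and 0.60, 0.37 and 0.052 at 96 h. Unlike-numbered ones ran from -0.29 to 0.21 at 24 h and from -0.52 to 0.31 at 96 h. The labels do not say that the numbers pair samples, and the main fits did not take them as pairs. Whether same-numbered libraries share an effect was not tested, and the main p-values leave it out. With the replicate block 2811 genes were called at 24 h, 6293 at 96 h and 4321 for the difference, with 4, 7 and 6 members. Under the replicate block MLX passed for the difference (0.21), the MNT difference was -0.0015, and CDKN1A, FTH1, PCGF6, TDRKH, TFEB and TXNIP passed at 24 h and GADD45A and TDRKH for the difference.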
